A study of Mus musculus with 4 samples.

Results

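Cells of the inflamed mouse hind paw synovium at day 5 after transfer of arthritogenic serum were compared with cells at day 2, by single-cell RNA sequencing with 1 library per day. The comparison covers 5957 of the 14314 retained cells of the time course, 2722 at day 2 and 3235 at day 5. Retained cells had at least 500 detected genes and under 10% of their unique molecular identifiers (UMIs, each a count of 1 captured transcript) from mitochondrial genes. All libraries came from Cx3cr1creER:tdTomato mice, in which the Cx3cr1 promoter drives a tamoxifen-inducible Cre recombinase and recombined cells express the TdTomato reporter. Tamoxifen was given 4 weeks before the K/BxN serum, and the hind paw cells sorted at days 0, 1, 2 and 5 were CD45+CD11b+Ly6G-, that is, myeloid cells without neutrophils. The labels used here do not give the number of mice or whether mice were pooled, so day, animals and library cannot be told apart, and no p-value is given. Ratios are day 5 over day 2 in UMIs per 1000000 UMIs (CPM), with exact 95% intervals that cover counting error only.

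Macrophages that live in the joint form a lining layer along the joint cavity and an interstitial population beneath it, and many of them express the complement genes C1qa, C1qb and C1qc. Blood monocytes, marked by Plac8 and Ly6c2, enter inflamed tissue and can acquire macrophage features there. K/BxN serum carries antibodies to glucose-6-phosphate isomerase and causes a transient arthritis. Because both populations pass the same sort, each gene was read 3 times: over all retained cells, over C1q-high Plac8-negative cells (at least 10 summed C1q UMIs and 0 Plac8 UMIs), and over C1q-low cells (under 10 C1q UMIs). C1q-high cells with Plac8 form the remaining set. C1qa, C1qb, C1qc and Plac8 chose these sets, and their levels within them are not results. A cell in the C1q-high Plac8-negative set need not be a resident cell: a recruited cell that has gained C1q transcripts would be counted there.

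The make-up of the sort differed between the days. At day 2, 2525 cells were C1q-high and Plac8-negative, 92.76% of retained cells (interval 91.72 to 93.71). At day 5 the set held 1805 cells, 55.80% (54.06 to 57.52). Days 0 and 1 stood at 86.89% and 91.28%, so day 5 was the low value of the 4. C1q-low cells went the other way, from 177 cells (6.503%) to 1265 cells (39.10%), and carried 5.596% of UMIs at day 2 and 40.69% at day 5. C1q-high Plac8-positive cells numbered 20 at day 2 and 165 at day 5, with a median of 93.5 C1q UMIs per cell at day 2 and 41 at day 5. Cells with no C1q UMI made up 0.698% of day 2 and 12.77% of day 5.

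**Figure D1:**
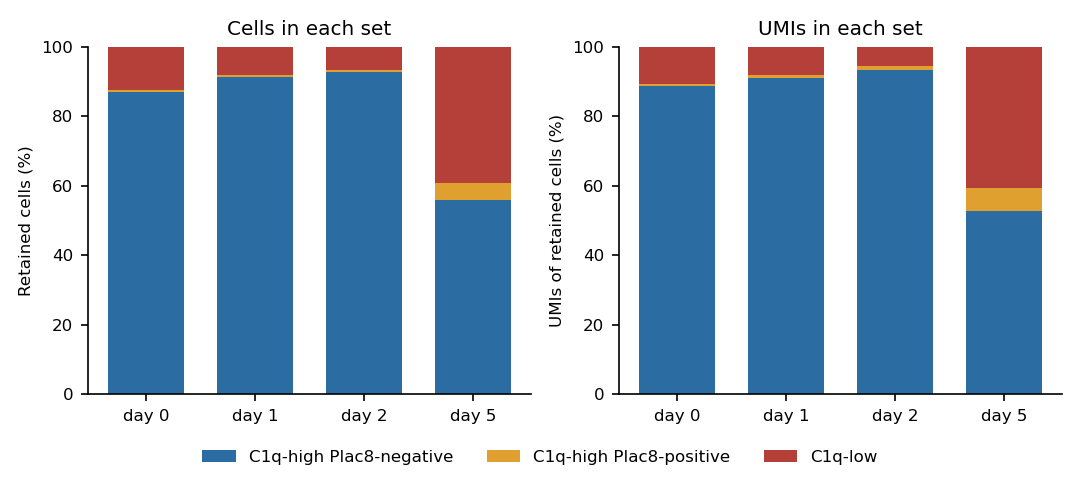
Share of retained cells (left) and of their UMIs (right), in percent, that lay in each of the 3 cell sets on each day. Each bar is 1 library. The C1q-low share at day 5, 39.10% of cells, stands above the other days.

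Few cells sat at the limit that parts the sets. At day 5, 56 cells had 8 or 9 C1q UMIs and 48 had 10 or 11, against 24 and 18 at day 2. The day 5 cells just under and just over the limit carried a median of 2 and 2.5 UMIs of the lining macrophage list, against 2 in all C1q-low cells and 11 in the C1q-high Plac8-negative set. Depth was similar between the days, with a median of 4183.5 UMIs per retained cell at day 2 and 3897 at day 5, and totals of 12159063 and 14901661 UMIs. The 2 libraries shared 13 cell barcodes. Csf1r, the receptor for the macrophage growth factor, was at 1061 CPM at day 2 and 688.5 at day 5. The summed level of 8 T and NK cell genes was 0.411 and 1.27 CPM. None of those 8 genes was listed on both days, and an unlisted gene adds nothing to such a sum.

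Over all retained cells, genes of monocytes, of inflammatory signalling and of matrix degradation were higher at day 5, and genes of resident synovial macrophages were lower. Of 7469 genes with at least 10 CPM on either day, 307 were at least 2-fold higher (4.11%) and 80 at least 2-fold lower (1.07%). Counting intervals lay wholly past 2-fold for 228 of the higher and 17 of the lower genes. The levels are summed values, in which more cells of a type and more RNA per cell cannot be told apart. Of the 14 monocyte genes, 11 rose by at least 2-fold and none fell, with a median log2 ratio of 3.04 against -0.04 for all measured genes. Ly6c2, the surface antigen of classical monocytes, was at 10.5 CPM at day 2 and 125 at day 5. Hp, which encodes the haemoglobin-binding protein haptoglobin, was at 17.8 and 183 CPM. Ccr2, the chemokine receptor that monocytes use to leave the bone marrow, was at 114 and 365 CPM and was among those that rose.

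The largest rise among the genes named by size was that of Ifitm1, an interferon-induced transmembrane protein. Its level was 5.29, 1.96, 0.740 and 452 CPM over days 0, 1, 2 and 5, a ratio of 611 (322 to 1337) that rests on 9 UMIs at day 2. Dmkn, which encodes the secreted protein dermokine, went from 0.905 to 128 CPM (ratio 141, 78.7 to 283). Thbs1, which encodes the matrix glycoprotein thrombospondin 1, went from 6.66 to 212 CPM (31.8, 25.5 to 40.1). F10, coagulation factor X, rose 26.4-fold and Slc7a11, the cystine transporter subunit, 22.0-fold. Each of these 5 ratios rests on a low day 2 level.

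Of 8 measured inflammatory mediators, 5 rose at least 2-fold and none fell, where 4.11% of all measured genes rose. Il1b, the cytokine interleukin 1 beta, was at 90.5 CPM at day 2 and 1122 at day 5 (ratio 12.4, 11.7 to 13.2). Il1rn, which encodes the antagonist of the same receptor, rose 8.59-fold, from 7.89 to 67.8 CPM, so both the agonist and its inhibitor were higher. Ptgs2, the inducible cyclooxygenase, was at 1.97 and 35.4 CPM, and Osm, the cytokine oncostatin M, at 27.2 and 143. Chemokines did not move together: of 17 measured, 3 were at least 2-fold higher and 4 lower. Cxcl2, a neutrophil attractant, was at 621 CPM at day 2 and 1442 at day 5. Pf4, a platelet-type chemokine that tissue macrophages also express, fell from 4506 to 2141 CPM, and Ccl24, an eosinophil attractant, from 267 to 119. Without the 8% of cells with the most UMIs the ratio of Pf4 was 0.514, within 2-fold.

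Matrix proteases and their inhibitors rose in 8 of 11 members, and osteoclast-associated genes in 7 of 7, where 4.11% of all measured genes rose. Spp1, the secreted phosphoprotein osteopontin, which is in the wound list, went from 152 to 1161 CPM (7.62, 7.264 to 7.999). Mmp14, a membrane-bound collagenase, rose 7.49-fold to 107 CPM, and Mmp9, a gelatinase, 6.39-fold to 154 CPM. Timp1, an inhibitor of these enzymes, rose 10.2-fold to 77.4 CPM. For Mmp9, the 10 highest cells held 93.84% of UMIs at day 2 and 52.73% at day 5. Among the osteoclast-associated genes, Acp5, the tartrate-resistant acid phosphatase, was at 85.4 and 339 CPM, and Ctsk, the collagen-degrading cathepsin K, at 192 and 615 CPM. Both were high at day 0 as well, Acp5 at 304 CPM and Ctsk at 513.

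Resident macrophage genes were lower over all retained cells. Of 15 interstitial macrophage genes, 5 fell by at least 2-fold and none rose (median log2 ratio -0.82), where 1.07% of all measured genes fell. Of 11 lining macrophage genes, 2 fell and none rose (-0.80). Lyve1, a hyaluronan receptor of interstitial macrophages, was at 1305 CPM at day 2 and 542 at day 5 (0.416, 0.405 to 0.427). Aqp1, a water channel, went from 800 to 289 CPM, and Cd209f, a C-type lectin, from 56.9 to 16.5. TdTomato itself fell from 775 to 380 CPM, and Cx3cr1, whose promoter drives the Cre, was at 185 and 110.

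Where the differing UMIs lay was computed by splitting each gene's whole-library difference among the 3 sets. For the 307 higher genes, the median share of the rise that lay in C1q-low cells was 87.5%. It was 10.4% in C1q-high Plac8-positive cells and 3.36% in C1q-high Plac8-negative cells. In the last set, its smaller share of UMIs gave -22.42% and levels within it 19.97%, as medians taken separately. The rise of Il1b split as 83.7%, 12.4% and 3.9%, and that of Ifitm1 as 87.3%, 8.99% and 3.69%. Spp1 placed 14.6% of its rise in the C1q-high Plac8-negative set, and Scand1 and Eif3f, described below, 29.1% and 29.2%. For the 80 lower genes the pattern was reversed: the C1q-high Plac8-negative set held a median of 106% of the fall, which passes 100% because the other sets gained. Of that fall, 66.5 percentage points came from the smaller share of the library's UMIs in the set and 40.7 from lower levels within it, as medians taken separately.

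**Figure D2:**
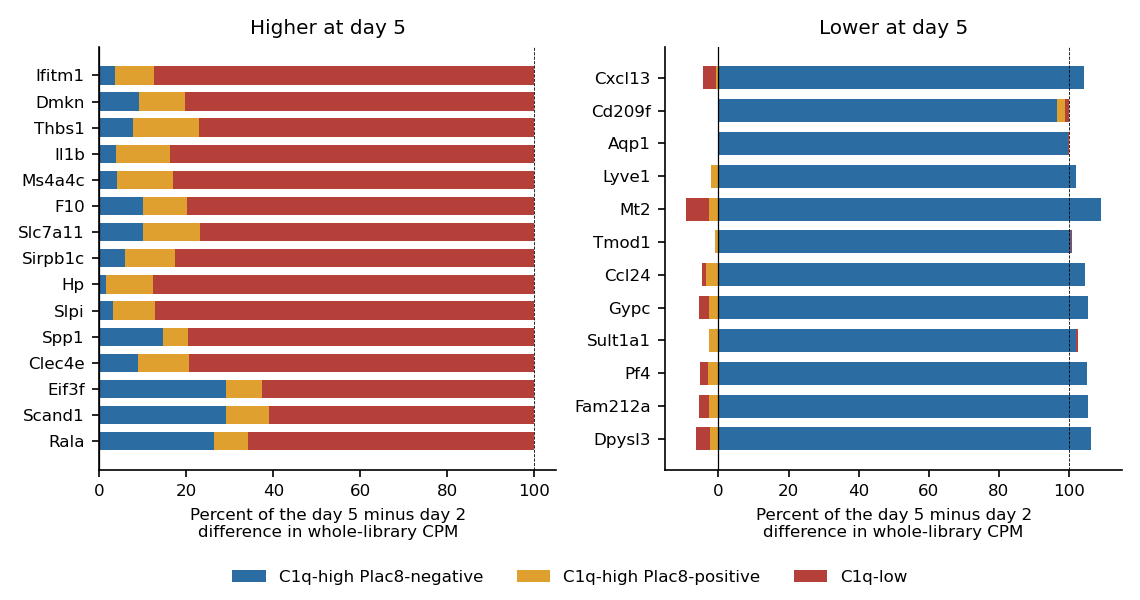
Percent of the day 5 minus day 2 difference in whole-library CPM that lay in each cell set, for genes higher (left) and lower (right) at day 5. Most of the rise of Ifitm1 or Il1b lay in C1q-low cells, and the fall of Lyve1 or Cxcl13 lay in C1q-high Plac8-negative cells.

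The C1q-low cells of the 2 days were not alike. Of the 177 at day 2, 18.08% had a Plac8 UMI, and of the 1265 at day 5, 52.25%. Day 2 C1q-low cells were shallower, with a median of 2998 UMIs against 3777 at day 5. Of them, 68 had under 2000 UMIs, against 37 at day 5. A shallow cell more easily misses C1q and Plac8, and the part of depth in these shares was not tested. Among 7568 measured genes in C1q-low cells, 421 were at least 2-fold higher (5.56%) and 659 lower (8.71%), from a day 2 side of only 177 cells. Ifitm1 was at 2.94 CPM at day 2 and 970 at day 5, on 2 day 2 UMIs. Il1b was at 513 and 2192 CPM (4.28, 3.84 to 4.77), and Spp1 at 178 and 1999 (11.2, 9.40 to 13.6). Of 13 monocyte genes measured there, 5 rose at least 2-fold and none fell. Vcan, which encodes the matrix proteoglycan versican, was at 19.1 CPM on 13 UMIs at day 2 and at 155 at day 5, and Ms4a4c, a membrane protein of the MS4A family, at 176 and 412. Among the monocyte genes within 2-fold were Ly6c2, at 166 and 263 CPM, and Chil3, a chitinase-like lectin, at 306 and 215.

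Some gene lists differed between C1q-low cells and the whole library. MHC class II genes, which present antigen to T cells, had a median log2 ratio of 0.67 over all retained cells and -0.82 in C1q-low cells. H2-Aa was at 1742 and 2766 CPM over all cells but 8056 and 4334 CPM in C1q-low cells. The dendritic cell list fell beside it in C1q-low cells, with 5 of 7 members lower and a sum of 2523 CPM at day 2 and 799 at day 5, and its part in the class II values was not tested. Split by Plac8, the class II sum was 4327 and 18724 CPM in C1q-low cells with Plac8, the day 2 value from 32 cells, and 68151 and 34639 CPM in those without. Acp5 was at 942 and 721 CPM in C1q-low cells. None of the 7 osteoclast-associated genes passed 2-fold there, although all 7 did over the whole library. The day 2 levels of Acp5 and Mmp9 rest on few C1q-low cells, 15 and 8. The 10 highest held 99.22% of the Acp5 UMIs. Fcgr1, the high-affinity IgG receptor, rose from 23.5 to 218 CPM in C1q-low cells. In the same direction as the whole library, of 15 type I interferon response genes 8 rose at least 2-fold there and none fell, against 5 over all retained cells.

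Day 5 C1q-low cells with and without Plac8 differed in which genes they carried. The 661 cells with Plac8 had Il1b at 3404 CPM, Thbs1 at 709, Hp at 784 and Ly6c2 at 532. The 604 cells without Plac8 had Il1b at 1149 CPM, Thbs1 at 128, Hp at 49.1 and Ly6c2 at 31.6. The order was turned for Spp1, at 744 CPM with Plac8 and 3079 without, for Acp5, at 378 and 1017, and for the MHC class II gene H2-Ab1, at 3617 and 7028. The 2 groups had median depths of 3745 and 3858 UMIs. A dendritic cell list summed to 294 CPM with Plac8 and 1235 without, and haemoglobin and haem synthesis genes to 6.06 and 716 CPM. The part of dendritic and red cell RNA in the values without Plac8 was not tested.

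Within the C1q-high Plac8-negative set the 2 days were much closer. Of 7369 genes measured there, 98 were at least 2-fold higher (1.33%) and 8 at least 2-fold lower (0.109%), and 96.05% lay within 1.5-fold, against 83.36% over all retained cells. Of the genes that rose at least 2-fold over all cells, 194 were measured in the set, and 89 of these (45.88%) were at least 2-fold higher there too. The other 105 stayed within 2-fold, and the median log2 ratio of the 194 was 1.47 over all cells and 0.98 in the set. Of the 80 genes that fell, 5 (6.25%) fell at least 2-fold in the set, with median log2 ratios of -1.13 and -0.50.

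**Figure D3:**
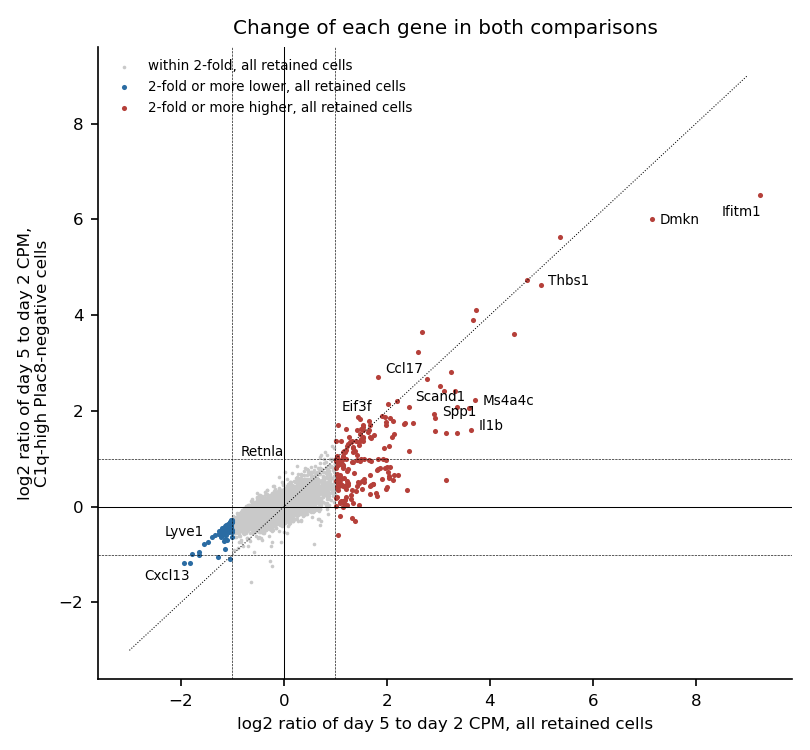
log2 ratio of day 5 to day 2 CPM for each measured gene, over all retained cells (horizontal) and over C1q-high Plac8-negative cells (vertical). Dashed lines mark 2-fold and the dotted line equal ratios. Most genes coloured as higher lie under the dotted line, and Lyve1 lies within 2-fold on the vertical axis.

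Of 9 monocyte genes measured in the set, 3 rose at least 2-fold and 6 were within it, and their levels relative to C1q-low cells ranged widely. At day 5, Ly6c2 in the set stood at 2.7% of its C1q-low level, Chil3 at 3.2%, Hp at 2.1% and Ifitm1 at 3.3%. With each cell thinned to 2000 UMIs, Ly6c2 was found in 0.963% of the set's cells at day 5 and 29.48% of C1q-low cells, and unthinned in 2.22% and 37.39% at median depths of 3898 and 3777 UMIs. The part of free RNA and of doublets in such low levels was not tested, and a level of a few percent is not taken as expression by the set's cells. Il1b stood at 8.4% of its C1q-low level, Clec4e, a C-type lectin that senses damaged cells and mycobacteria, at 20.3%, and Spp1 at 27.4%. Of other genes of the monocyte list, Ccr2 stood at 23.1% and Vcan at 35.0%. The calcium-binding proteins S100a4 and S100a6 were nearly as high or higher in the set, at 84.1% and 119%.

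The levels of lining and interstitial macrophage genes within the set differed little. None of the 11 lining genes and none of the 15 interstitial genes passed 2-fold, with median log2 ratios of -0.19 and -0.15 against -0.01 for all genes in the set. Vsig4, a complement receptor of lining cells, was at 1868 CPM at day 2 and 1685 at day 5. Sparc, a matricellular protein, was at 1057 and 936, and Folr2, a folate receptor, at 1401 and 1329. Lyve1 was at 1379 and 968 CPM in the set (0.702), so it kept a difference that the 3 former genes hardly showed. Aqp1 was at 826 and 495 CPM and Cd209f at 58.3 and 29.2.

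**Figure D4:**
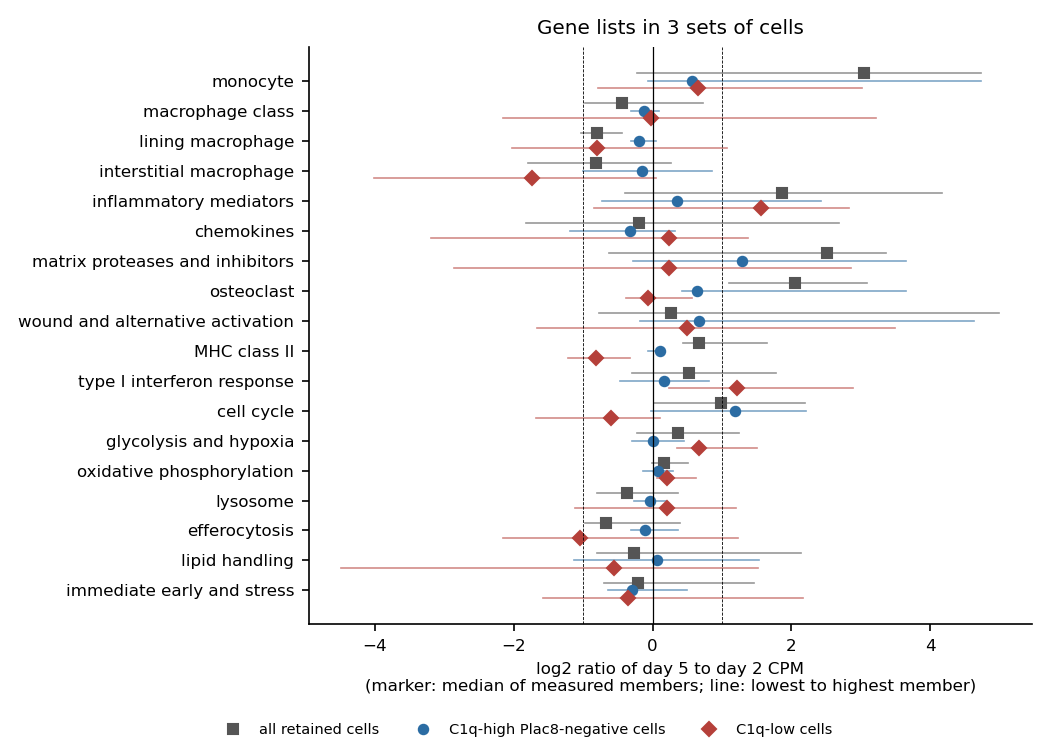
Median log2 ratio of day 5 to day 2 CPM (marker) and range over measured members (line) for 18 gene lists in all retained cells, C1q-high Plac8-negative cells and C1q-low cells. Monocyte, matrix and osteoclast medians are high in all retained cells and nearer 0 in the other sets, while the cell cycle median is above 0 in the set and under 0 in C1q-low cells.

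Some inflammatory and matrix genes were higher in the set itself. Spp1 was at 152 CPM at day 2 and 548 at day 5 (3.61, 3.42 to 3.82), and 13.74% and 27.09% of cells had a UMI of it. Mmp14 rose 3.84-fold, from 13.6 to 52.4 CPM, and Il1b 3.02-fold, from 60.9 to 184. Clec4e went from 33.6 to 101 CPM and Fabp5, a fatty acid binding protein, from 49.0 to 142. With cells thinned to 2000 UMIs, the share of cells with a UMI was 9.12% and 17.33% for Spp1, 1.84% and 7.53% for Mmp14, and 4.78% and 11.44% for Il1b. For Clec4e and Fabp5 it was 3.99% and 11.27%, and 5.13% and 9.91%. All 5 genes were thus found in a larger share of cells at equal depth as well as at a higher summed level. Il1b was at 91.5 CPM in the day 0 set, so its day 5 level was about 2-fold over day 0 and its day 2 level below it. In the same day 0 set Spp1 was at 100 CPM, Mmp14 at 23.6, Clec4e at 81.9 and Fabp5 at 81.4. For Clec4e, the day 5 level was thus only a little over the day 0 level. In cells at 0 for Ly6c2 and Ccr2 as well as Plac8, the ratio of Il1b was 1.48, within 2-fold, while Spp1 stood at 2.29, Mmp14 at 2.53 and Clec4e at 2.27.

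Other inflammatory genes of the set were lower at day 5 or within 2-fold. Ccl7, a monocyte attractant, stood at 254 CPM on day 2 against 135 on day 5, and its relative Ccl2 at 304 against 181. Tnf, the cytokine tumour necrosis factor, was at 70.2 and 51.5, and Atf3, a stress-induced transcription factor, at 461 and 296. The immediate early and stress list had a median log2 ratio of -0.30, and none of its 23 members passed 2-fold. Efferocytosis, lysosome and oxidative phosphorylation genes had medians of -0.11, -0.04 and 0.08, with no member past 2-fold.

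The set's changes were not spread evenly over cells with and without the reporter. At day 2, 53.11% of the set's cells had at least 2 TdTomato UMIs, and at day 5 45.48%. Cells with no TdTomato UMI numbered 959 and 802. In cells with the reporter, Spp1 was at 217 CPM at day 2 and 285 at day 5 (1.31, 1.21 to 1.42), whereas in cells without it Spp1 was at 56.1 and 876 (15.6, 13.5 to 18.1). Mmp14 had ratios of 1.65 with the reporter and 20.1 without, the latter from 12 day 2 UMIs. Il1b had ratios of 1.51 and 8.01, Clec4e of 1.58 and 8.68, and Fabp5 of 1.27 and 5.31. These 5 genes were chosen after their values were seen, and the difference between the strata has no replicate behind it.

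A split by lining markers gave a like order. In cells with at least 3 UMIs of Sparc, Vsig4 and Olfml3 summed, Spp1 had a ratio of 1.29, Mmp14 of 1.88 and Il1b of 1.62. In cells under 3 such UMIs the ratios were 7.46, 10.4 and 4.42. Clec4e and Fabp5 parted less than by reporter, with ratios of 2.05 and 1.55 in lining-marker cells and 3.96 and 3.07 under 3. Acp5 was at 47.2 and 50.7 CPM in cells with the lining markers and at 15.4 and 87.4 in cells under 3. MHC class II genes split too: H2-Aa was at 537 and 299 CPM in lining-marker cells and at 2657 and 2829 in the others. Cells with 2 or more TdTomato UMIs were deeper than cells with none, with medians of 4720 and 3628 UMIs at day 2 and 4340 and 3503.5 at day 5. The splits therefore also part cells by depth, and a cell with no TdTomato UMI need not lack the reporter.

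**Figure D5:**
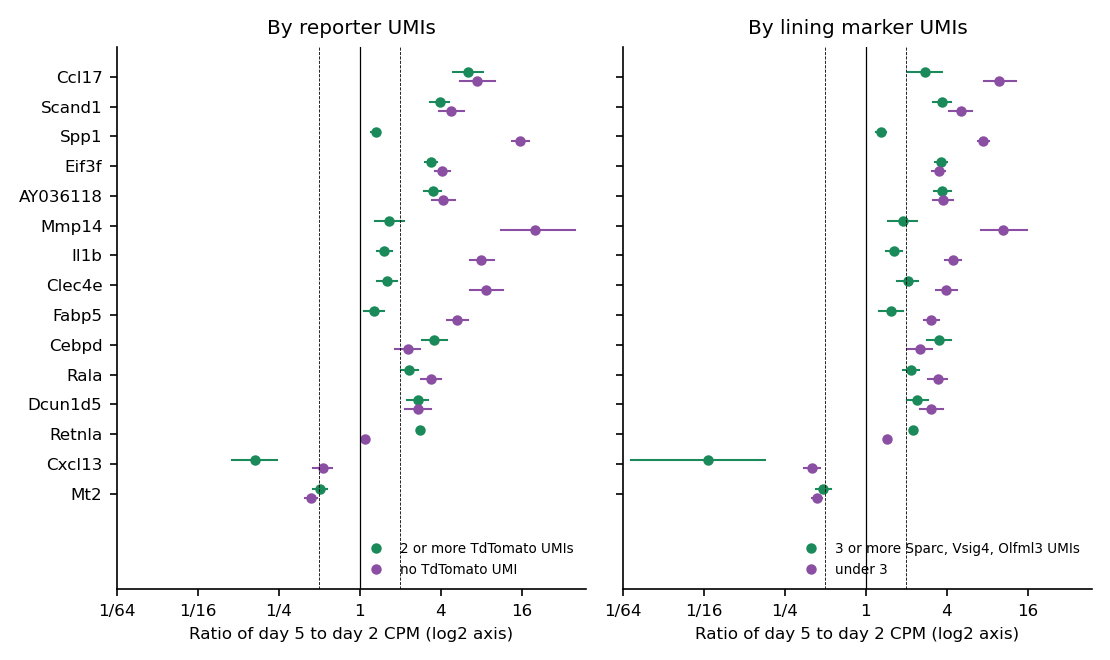
Ratio of day 5 to day 2 CPM on a log2 axis with exact 95% intervals (counting error only), within the C1q-high Plac8-negative set, split by TdTomato UMIs (left) and by summed Sparc, Vsig4 and Olfml3 UMIs (right). Spp1, Mmp14, Il1b, Clec4e and Fabp5 part widely between reporter strata, and Clec4e and Fabp5 less so between lining strata. Scand1, Eif3f, AY036118 and Dcun1d5 lie closer together.

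Many of the higher genes passed 2-fold on both sides of these splits. Of the 98 genes at least 2-fold higher in the set, 94 also passed in cells with no TdTomato UMI. In cells with at least 2 such UMIs 74 passed, and 70 passed in both. The strata divide the same cells that chose the 98, so passing in them was partly given in advance. Over all measured genes, 198 of 7508 were higher with no TdTomato UMI and 79 of 7306 with at least 2. Of the 98, 37 passed in all 4 strata and in C1q-low cells as well. They were a mixed group. Ifitm1, Thbs1, Dmkn and F10 were among them, at 3.3%, 8.2%, 8.98% and 9.99% of their C1q-low level at day 5. Ifitm1 and Dmkn were each at only 0.352 CPM in the day 2 set. Eif3f, Scand1, Rala and Dcun1d5, described next, stood at 67.4%, 61.8%, 83.1% and 66.0% of their C1q-low level. Eif3f, a subunit of translation initiation factor 3, was at 83.6 CPM in the set at day 2 and 302 at day 5 (3.62, 3.35 to 3.90), with ratios between 3.37 and 4.09 in the 4 strata. Scand1, a SCAN-domain nuclear protein, was at 32.4 and 137 CPM (4.22, 3.75 to 4.76). AY036118, a transcript that the annotation places inside Gm42418 on the other strand, was at 40.3 and 150 CPM, and reads of the pair may not be fully parted. Rala, a small GTPase, and Dcun1d5, a factor of cullin neddylation, both rose 2.73-fold. Passing in every stratum did not mean equal ratios, since Rala had ratios of 2.32 with the reporter and 3.37 without, and Il1rn, also among the 37, of 2.65 and 7.58. With cells thinned to 2000 UMIs, Eif3f was found in 14.3% of the set at day 2 and 45.5% at day 5, and Scand1 in 6.27% and 23.95%.

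Many genes of this group had been higher at day 0 and day 1 than at day 2. Eif3f stood at 539 CPM in the day 0 set and 149 at day 1, Scand1 at 158 and 72.4, Rala at 110 and 74.3, and Dcun1d5 at 84.0 and 47.4. Cebpd, a transcription factor of the C/EBP family, was at 96.7, 40.6, 24.7 and 74.9 CPM at days 0, 1, 2 and 5. Of the 37 genes, 27 (72.97%) went down or stayed level from day 0 to day 1 to day 2. So did 27 of the other 61 higher genes (44.26%) and 1216 of all 7369 genes measured in the set (16.50%). A gene chosen for a high day 5 over day 2 ratio tends to have a low day 2 value, so these shares are a description. Day 0 cells were shallower, with a median of 1057 UMIs, and the part of library depth or handling in this order was not tested. At day 5 Eif3f, Scand1, Dcun1d5 and Cebpd were part or most of the way back to their day 0 levels, and Rala and AY036118 were past them. Dmkn was among the genes that did not share this order, at 0.259 CPM in the day 0 set and 22.6 at day 5.

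Promoter sequence was read for the genes named by size, of which 26 of 35 had an entry among RefSeq promoters on GRCm38.p6 (250 bases before to 50 after the start). The windows printed here belong to genes that part between strata (Spp1, Mmp14) and genes that rose in every stratum (Dcun1d5, Eif3f, Dmkn). Each is 30 bases, 5′ to 3′ on the gene's strand, with the motif in capitals.
Spp1: tttttttttttaACCACAaaaccagaggag
Mmp14: atggcagcctgcACCACAgaaaagacaaac
Dcun1d5: atgcagtcaaaTTGCTAAAggctcagaatt
Eif3f: tcatcaagataTGATTCAcgtggtataaat
Dmkn: tggataggcccTGAGTCActggaggaggga

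The Spp1 and Mmp14 windows hold the RUNX motif TGTGGT, read on either strand, at chr5:104434971-104435000 (+) for Spp1 and chr14:54431472-54431501 (+) for Mmp14. That motif occurs in 16.76% of all 32851 promoters. The Dcun1d5 window at chr9:7176499-7176528 (+) holds the C/EBP motif TTGCNNAA, which occurs in 10.80% of promoters. The Eif3f window at chr7:108934331-108934360 (+) and the Dmkn window at chr7:30763656-30763685 (+) hold the AP-1 motif TGANTCA, which occurs in 7.808%. Of the 26 genes with an entry, 9 held the RUNX motif in at least 1 promoter, 11 the C/EBP motif, 7 the NF-kB motif GGGANNNNCC, 4 the AP-1 motif and 1 the interferon response motif GAAANNGAAA. Some genes have several promoters, so these counts per gene are not set against the shares per promoter. Spp1 and Dmkn also held a C/EBP match. Among windows not printed, Ms4a4c, which rose in every stratum, held a RUNX match. Clec4e, which parted by reporter, held both RUNX and C/EBP matches. The printed windows are thus picked examples, and motifs do not part the groups of genes. A match is a description of these letters and not a site of binding. Promoters were found for 73.47% of the 98 higher genes, under 80%, so a comparison of motif shares between gene groups is void and none is made.

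Some changes in the set rested in part on few cells. The 10 highest cells held 41.0% of Spp1 UMIs at day 5, with 349 in the highest cell, and 33.2% of Il1b, 39.4% of Thbs1 and 48.6% of Arg1. Ccl17, a chemokine of dendritic cells that attracts CCR4-bearing T cells, had the highest ratio among genes at 50 CPM or more in the set, from 12.5 to 81.2 CPM (6.497, 5.41 to 7.85). A UMI of it was found in 52 cells on each day, and at day 5 the 10 highest cells held 90.3% of its UMIs. The ratio was 2.56 without the 8% of cells with the most UMIs and 1.26 in cells at 0 for Plac8, Ly6c2 and Ccr2. Retnla, a resistin-like protein of alternatively activated macrophages, was at 864 CPM at day 2 and 1558 at day 5, with 32.28% and 33.52% of cells positive. Its highest cell held 199 UMIs at day 2 and 1056 at day 5. The 10 highest cells held 15.7% and 36.5% of its UMIs. Eif3f and Scand1 were spread more evenly, with 3.82% and 4.18% of their day 5 UMIs in the 10 highest cells.

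Only 8 genes were at least 2-fold lower in the set. None of these had a counting interval wholly past 2-fold, whereas 61 of the 98 higher genes did. Cxcl13, a B cell attractant, was found in 70 cells at day 2 and 35 at day 5, and the 10 highest cells held 76.9% and 87.5% of its UMIs. Mt2, a metallothionein that binds zinc and copper, was found in 36.87% and 23.49% of cells, and in 23.8% and 15.0% of cells thinned to 2000 UMIs. Its paralog Mt1 was at 1084 and 789 CPM, within 2-fold. Barx2, a homeobox transcription factor, Dcn and Fabp4, a fatty acid binding protein, were at least 2-fold lower in all 4 strata and in C1q-low cells. In the set, Barx2 was at 26.3 CPM at day 2 and 11.7 at day 5, Dcn at 25.3 and 10.7, and Fabp4 at 14.3 and 6.48. Dcn encodes the matrix proteoglycan decorin of fibroblasts, and a fibroblast list summed to 39.7 CPM in the set at day 2 and 19.6 at day 5, and whether cells or free RNA carried it was not tested.

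Cell cycle genes were higher in the set and not in C1q-low cells. Of 18 measured in the set, 10 rose at least 2-fold and none fell, with a median log2 ratio of 1.19. In C1q-low cells none of 20 rose and 6 fell (-0.60). Of all measured genes, 1.33% rose in the set, and 5.56% rose and 8.71% fell in C1q-low cells. Top2a, a topoisomerase of dividing cells, was at 12.6 and 32.0 CPM in the set, and Birc5, a chromosomal passenger protein, at 9.60 and 31.3. Stmn1, a microtubule regulator, was at 67.5 and 139 CPM in the set and at 301 and 131 in C1q-low cells. The 10 highest cells held 38.3% and 33.2% of the set's Stmn1 UMIs at days 2 and 5. Pcna, the replication clamp, had a ratio of 1.02 in the set and Mki67, a proliferation antigen, of 1.65, so the list's rise was carried by other members. Split by lining markers, Birc5 had a ratio of 1.66 in cells with at least 3 lining UMIs and 4.44 under 3. Ccnb2 stood at 1.05 and 4.63, Ccna2 at 2.69 and 3.95, and Ube2c at 3.33 and 5.35. The C1q-low values at day 2 come from 177 cells.

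Wound and alternative activation genes rose in 3 of 9 members in the set, where 1.33% of all measured genes rose. Arg1, the arginine-degrading enzyme arginase 1, was at 3.35 and 31.4 CPM, and its ratio was 7.08 in cells with the reporter and 16.4 in cells without. Thbs1 went from 1.32 to 32.5 CPM, and Spp1 was the other. Il1rn, among the inflammatory mediators, went from 6.78 to 36.4 CPM. Tgfb1, a growth factor that acts in tissue repair, was at 63.0 and 118 CPM (1.87), with ratios of 2.06 and 1.75 by reporter. Arg1, Thbs1 and Tgfb1 thus had ratios above 1 in each of the 4 strata, unlike the MHC class II gene H2-Aa, at 0.641 with the reporter and 1.38 without.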

How the data were processed

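The authors deposited raw UMI counts per gene and cell barcode for each day, from 10x Genomics Chromium Single Cell 3' v2 libraries for which 17400 cells were loaded, per the labels. The submitters' processing notes name Cell Ranger 2.1.0, Seurat 2.3, R 3.5.2 and build mm10, without role or order. Each deposited table leaves out genes seen in very few barcodes, and a gene left out was not taken as 0 in any ratio. In the summed levels of gene lists it added nothing, as a 0 would. Barcodes with under 500 genes (2 at day 2) or at least 10% mitochondrial UMIs (32 and 30) were removed. Doublets were not removed.

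Counts were summed per day and cell set and scaled per 1000000 UMIs in pandas 2.3.3 and NumPy 2.4.6 under Python 3.11.15, with intervals from SciPy 1.17.1 and plots by matplotlib 3.10.9. A gene was measured where both tables listed it and 1 day reached 10 CPM, and counted as changed at a 2-fold ratio. With 1 library per day there is no test. Intervals are at 95%, Clopper-Pearson for shares and exact conditional on the Poisson total for ratios. In simulated counts, 200 of 200 genes given a change were recovered in each comparison. None of 7015 and 7023 unchanged genes that reached the minimum passed. Each given change was past the 2-fold limit and each such gene above the 10 CPM minimum, so recovery at either limit was not tried. The simulation holds counting noise only and says nothing of variation between animals or libraries.

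Genes were named as the 12 with the largest difference in log2(CPM + 5) in each direction at 50 CPM or more, up to 4 members per gene list, and fixed marker genes. Further genes, those counted over strata, cells or days, were chosen after their values were seen. The cell sets, members and lists were chosen with earlier results of these data known. Alternatives are given at the end.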

Additional observations from a re-analysis of the deposited data

Results flagged for a closer look

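Among genes at 50 CPM or more in both cell sets and at least 2-fold different in 1 of them, 4 differed by at least 1.5-fold in the C1q-high Plac8-negative set and lay on the other side of 1 in C1q-low cells, with both intervals clear of 1. The difference between the cell sets was not tested. Ccl17 had a ratio of 6.497 in the C1q-high Plac8-negative set and 0.4261 in C1q-low cells, and 52 cells of that set carried it on each day. Gm42418, a predicted transcript that overlaps ribosomal RNA sequence, was at 775.4 and 1551.1 CPM in the set (ratio 2.000) and had a ratio of 0.9246 in C1q-low cells. Retnla had ratios of 1.803 and 0.4133, and Stmn1 of 2.056 and 0.4346. In C1q-low cells the day 2 levels rest on few cells: 27 carried Ccl17, 47 Retnla and 26 Stmn1. The 10 highest of these held 88.93%, 78.36% and 80% of the UMIs.

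At day 5 there were 7 genes at 10 CPM or more that the day 2 table does not list, and no ratio is given for them. Alox15, a lipoxygenase, was at 17.31 CPM in 44 cells, with 75.97% of its UMIs in C1q-low cells. Vegfa, the vascular growth factor, was at 15.70 CPM in 176 cells, and Nrg1, a ligand of ErbB receptors, at 14.36 CPM in 142 cells. Car2, the carbonic anhydrase of osteoclasts and red cells, was at 13.89 CPM in 46 cells, with 91.30% of UMIs in C1q-low cells. Ibsp, a bone matrix sialoprotein, was at 12.68 CPM in only 8 cells, with 97.35% of UMIs in C1q-low cells. B3gnt5 was at 12.08 CPM in 159 cells and Arg2 at 11.01 CPM in 130 cells.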

How the results depend on the processing

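With 1 library per day no value has a replicate check, and no paired analysis was possible because each day has only replicate 1. For the 38 gene ratios that were recomputed, 0 of 468 values changed direction, although 90 moved past their counting interval. Genes outside these can turn between strata: H2-Aa had a ratio of 0.641 with the reporter and 1.38 without. Counts followed the level a gene must reach. Over all retained cells, a minimum of 50 CPM left 103 genes higher and 26 lower, and no minimum gave 645 and 313. Lower genes numbered 52 when mitochondrial, ribosomal protein and haemoglobin UMIs were left out and 53 without the 8% of cells with the most UMIs. In the C1q-high Plac8-negative set, 50 CPM left 28 higher and 2 lower, and no minimum gave 413 and 242. Within the set, cells with 2 or more TdTomato UMIs gave 16 lower, and cells with none gave 198 higher and 32 lower. Cells with 3 or more lining UMIs gave 52 higher and 21 lower, and cells under 3 gave 183 and 23. The cause of these differences was not tested.

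The share of cells in the set at day 2 was 88.98% with a C1q limit of 20 UMIs and 94.53% with 5, and at day 5 51.84% and 59.41%. Requiring Plac8, Ly6c2 and Ccr2 all at 0 gave 81.04% and 43.83%, and thinning to 2000 UMIs gave 94.85% and 57.60%. At day 2 the share was 94.71% with at least 1000 genes per cell and 94.02% with under 5% mitochondrial UMIs. Weighting day 5 lining strata to their day 2 share of UMIs, an alternative chosen after seeing the data, gave 87 genes higher and 11 lower in the set.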

Other observations

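Of 15 glycolysis and hypoxia genes, 2 were at least 2-fold higher over all retained cells and none in the C1q-high Plac8-negative set, while 3 were higher in C1q-low cells. The shares of all measured genes that were higher in these sets were 4.11%, 1.33% and 5.56%. Oxidative phosphorylation genes had none past 2-fold among 16 over all retained cells, with a median log2 ratio of 0.17. Of 13 lipid handling genes, 1 was higher and none lower over all retained cells, and 1 was higher and 1 lower in the set. Ifitm3, an interferon-induced membrane protein, was at 469 CPM at day 2 and 1610 at day 5 over all retained cells, and at 416 and 504 CPM in the set. Tmsb10, an actin-binding thymosin, was at 382 and 1494 CPM over all retained cells and at 267 and 470 CPM in the set.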
